A study of Mus musculus with 20 samples.

Results

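Gene expression was compared between the DEX and the VEH library of each of 3 murine T lineage acute lymphoblastic leukemias (T-ALLs), 5C, 8633 and JW14, in which the NOTCH1 target *Dtx1* was below 1 FPKM (fragments scaled to exon length and library total, calculated here from the deposited counts). These 6 libraries were chosen by the *Dtx1* level of the leukemia and by the arm in the name of each expression column, 6 of the 20 libraries of the series, and they are called NOTCH-silent here. The 3 leukemias arose in C57Bl/6 x 129Sv/Jae mice injected as pups with the MOL4070LTR retrovirus, a mutagen that activates genes near its integration sites, and RNA was taken from the marrow of transplanted mice. The study passaged the leukemias into irradiated wild-type F1 recipients, whose own marrow cells can be in the samples. Neither the labels nor the text of the study explain the letters DEX and VEH. DEX is a common abbreviation of dexamethasone, a synthetic glucocorticoid, and VEH of vehicle, but the letters alone do not establish the agent, and no dose or time was given. Each leukemia had 1 DEX and 1 VEH library, so a difference between recipient mice cannot be told apart from a difference between arms within a pair.

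Glucocorticoids bind the glucocorticoid receptor, which is held in the cytoplasm by chaperones, enters the nucleus with its ligand and binds response elements in DNA. In lymphoid cells its known targets include feedback genes such as *Tsc22d3*, *Fkbp5* and *Per1* and the death gene *Bcl2l11*, and glucocorticoids are part of the treatment of acute lymphoblastic leukemia. NOTCH1 drives growth in many T-ALLs, in part through an enhancer of *Myc*, the regulator of ribosome production, glucose use and cell division.

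*Dtx1* (chromosome 5, 120680202 to 120711927, GRCm38) lay at 0.274 FPKM in VEH and 0.0397 in DEX of 5C, at 0.171 and 0.146 in 8633, and at 0.175 and 0.161 in JW14. The NOTCH-active leukemia nearest to the threshold was JW81, at 44.8 FPKM in VEH and 44.5 in DEX. A further leukemia, 4638, also lay below 1 FPKM (mean 0.283), but the 3 leukemias above were named by the rule and 4638 was kept out of the main comparison. The NOTCH1 targets *Hes1*, *Nrarp*, *Ptcra* and *Il2ra* were also under 1 FPKM in all 6 libraries, while *Notch3* and *Heyl* reached 1.28 FPKM in 5C. *Notch1* itself, also on this list of 8 genes, lay at 1.06 to 1.69 FPKM in the 6 libraries.

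The leukemias carried T lineage transcripts. *Trac*, the constant region of the T-cell receptor alpha chain, was at 136 FPKM in VEH and 145 in DEX of 5C, at 95 and 114 in 8633, and at 92.0 and 86.2 in JW14. The beta constant gene *Trbc1* set 5C apart, at 1.22 and 0.0563 FPKM in VEH and DEX against 267 and 275 in 8633 and 302 and 300 in JW14. *Cd4* was at 168 and 173 FPKM in 5C and between 6.99 and 10.3 FPKM in the other two leukemias, and *Cd8a* was below 1 FPKM in all 6 libraries. The VEH libraries of 8633 and JW14 were very alike, with Pearson's r of 0.978 across 10682 genes and 45 genes more than 4-fold apart on the log2(FPKM + 1) scale, against r of 0.878 and 396 genes between 5C and 8633. The 3 pairs are therefore also given separately for the genes described at length.

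The 6 libraries held 8226528 to 37763554 counts, the smallest being the DEX library of JW14 and the next the VEH library of 5C. In the same 2 libraries ribosomal RNA genes had 64.0 and 47.1 CPM (counts scaled by the library total), against 0 in the other 4, and 111 and 112 genes of 100 to 150 bases reached 3 counts, against 17 to 24. These short RNA counts therefore stood in the VEH arm of 5C and in the DEX arm of JW14, and neither library of 8633 held ribosomal RNA counts. B lineage markers were low in all 6 libraries (9 of 9 below 1 FPKM). The summed level of 15 neutrophil markers went from 1220.4 FPKM in VEH to 959 in DEX of 5C, from 416 to 674 in 8633 and from 48.5 to 23.4 in JW14, so it moved in different directions between the pairs. In bulk marrow fewer cells of a type and less RNA per cell cannot be told apart.

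No gene differed between DEX and VEH over the 3 NOTCH-silent pairs at an adjusted p of 0.05, among 10682 genes tested with edgeR's quasi-likelihood test (0% called). The test at an unadjusted p under 0.05 held for 523 genes (4.9%), 222 higher (2.08%) and 301 lower (2.82%) in DEX. DESeq2 called 17 genes (0.159%), 8 higher (0.0749%) and 9 lower (0.0843%). The edgeR count was 6 without 5C, 5 without JW14 and 2 without 73M, a NOTCH-active leukemia that shares the estimate of spread. Over all genes 15.8% were higher in DEX in all 3 pairs and 15.3% lower in all 3, so that 31.2% had the same sign in the 3 pairs. The median standard error of a log2 change was 0.13. In the same fit the DEX term of the 6 NOTCH-active leukemias (20M, 2M, 73A, 73M, 78A and JW81, 12 libraries of 12575231 to 201222288 counts, from the same strain, of which the DEX libraries of 20M, 73M and JW81 held short RNA counts, with 21.6, 61.0 and 47.5 CPM of ribosomal RNA genes) called 2020 genes (18.9%), 929 higher (8.7%) and 1091 lower (10.2%) over 6 pairs.

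The 2 genes with the lowest p were *Txnip* and *Mex3a*, chosen after their values were seen. *Txnip* (ENSMUSG00000038393, chromosome 3, 96557957 to 96561883) encodes a thioredoxin-binding protein that restrains glucose uptake. Its level was 46.5 FPKM in VEH and 142.6 in DEX of 5C, 29.2 and 96.3 in 8633, and 30.7 and 65.1 in JW14. Every DEX library was above every VEH library. The log2 change was 1.61 in 5C, 1.72 in 8633 and 1.08 in JW14, and the fit gave 1.48 (SE 0.20), a 2.78-fold higher level, at an adjusted p of 0.0737 in edgeR. The NOTCH-active leukemias gave 1.48 as well (SE 0.14, adjusted p = 0.000105 in edgeR), and the difference between the classes was -0.01 with a 95% interval of -0.54 to 0.53. *Txnip* passed the threshold in 9 of 26 other settings of the fit, among them genes of at least 200 bases (adjusted p = 0.0494 in edgeR), and its log2 change ranged from 1.35 to 1.72 over all of them.

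*Mex3a* (chromosome 3, 88532395 to 88541396), which encodes an RNA-binding protein, was lower by nearly the same amount in each pair. It lay at 4.72 FPKM in VEH and 2.93 in DEX of 5C, at 10.2 and 6.50 in 8633, and at 15.6 and 9.80 in JW14. The leukemias differed in level by more than the arms did, but the log2 changes were -0.69, -0.65 and -0.67, with a fitted -0.67 (SE 0.09, adjusted p = 0.0737 in edgeR). The NOTCH-active pairs ranged from -1.42 to -0.96 and did not overlap with them, while the test of the difference did not pass (0.48, SE 0.11, adjusted p = 0.136 in edgeR).

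**Figure D1:**
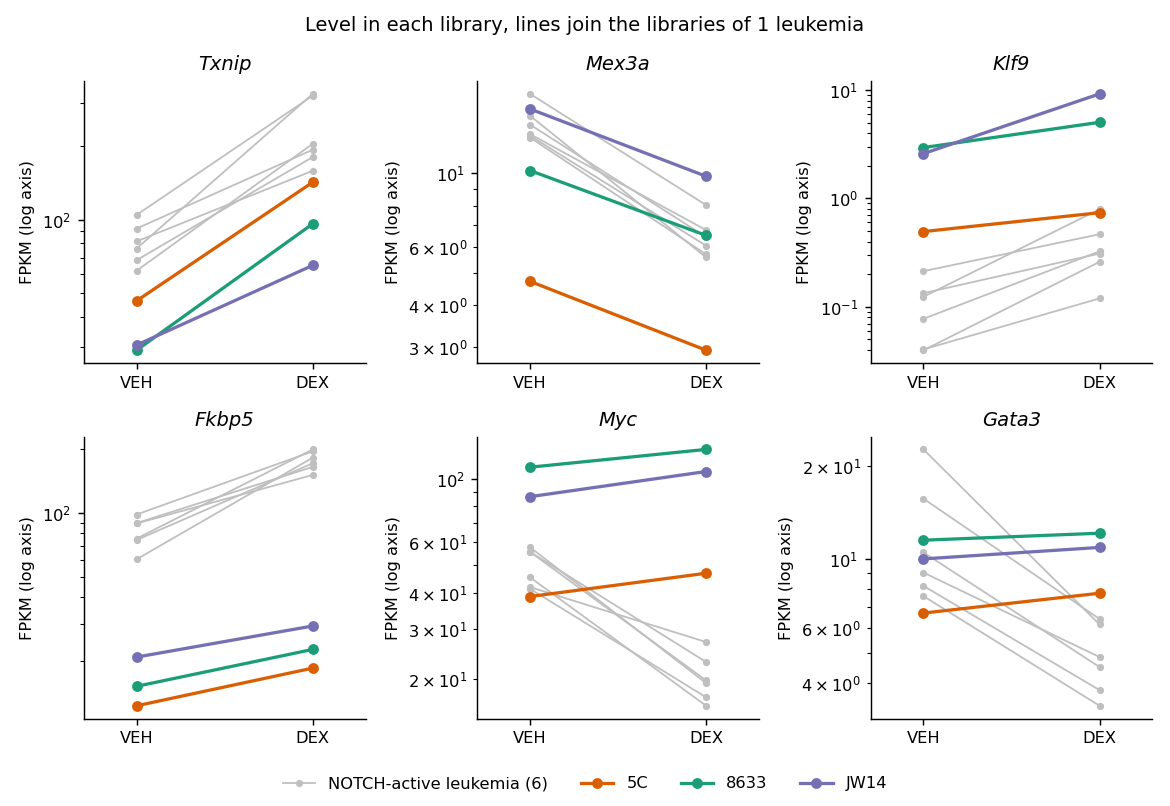
Level of 6 genes in FPKM (log axis) in the VEH and the DEX library of each leukemia, with 1 line per leukemia, coloured for 5C, 8633 and JW14 and grey for the 6 NOTCH-active leukemias. *Txnip* is higher and *Mex3a* lower in DEX in all 9, whereas the lines of *Myc* and *Gata3* go down in the 6 NOTCH-active leukemias and slightly up in the 3 others.

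The window around the *Txnip* start site is shown because *Txnip* had a low p in both classes of leukemia with nearly the same change. It is the RefSeq promoter chr3:96557707-96558006, plus strand, GRCm38.p6. The capitals mark a pair of CACGAG motifs, 5 bases apart, with the first at position -85. Such a pair of E-box-like motifs is the layout of a carbohydrate response element, which MLXIP (MondoA) binds together with MLX.
Txnip: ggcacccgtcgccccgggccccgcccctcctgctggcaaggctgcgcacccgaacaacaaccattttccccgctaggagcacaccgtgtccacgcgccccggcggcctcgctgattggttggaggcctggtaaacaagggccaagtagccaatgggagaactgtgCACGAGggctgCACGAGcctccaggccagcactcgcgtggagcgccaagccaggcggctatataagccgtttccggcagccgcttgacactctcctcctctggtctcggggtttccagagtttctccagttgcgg
The motif was chosen after the sequence was seen, and 0.359% of 32851 RefSeq promoter windows hold CACGAG at least 2 times when both strands are searched. A match is a description of letters and not a measured site.

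Other genes had a low p and the same sign in all 3 pairs, and some of them are given here. *Clec2d*, a ligand of an inhibitory receptor on natural killer cells, was at 5.61 FPKM in VEH and 2.64 in DEX of 5C, at 17.7 and 3.24 in 8633, and at 29.6 and 8.48 in JW14. Its fitted log2 change of -1.81 (SE 0.35) came with an adjusted p of 0.407 in edgeR. *Dntt*, the template-independent DNA polymerase of antigen receptor joining, went from 28.8 to 5.28 FPKM in JW14 but was at or below 1.75 FPKM in 5C and 8633. *Trim24* and *Nrip1*, cofactors of nuclear receptors, were higher by 0.49 and 0.55 on the log2 scale (SE 0.08 and 0.10). *Akap13*, an anchoring protein of protein kinase A, was higher by 0.65 (SE 0.14), and *Ptpn22*, a phosphatase that dampens T-cell receptor signals, by 0.71 (SE 0.16). *Cited2*, a coregulator of CBP and p300, was higher by 0.56 (SE 0.12) and *Ston1* by 1.02 (SE 0.23). The amino acid transporter gene *Slc38a2* was lower by 0.49 on that scale (-0.49, SE 0.11). None of these passed the threshold in the main fit of edgeR, while DESeq2 called *Clec2d*, *Dntt*, *Trim24*, *Nrip1*, *Akap13*, *Ston1*, *Ptpn22* and *Slc38a2*, and *Cited2* passed with 8633 and JW14 alone. *Gm7336*, *Gm12671* and *Gm10359* had similar values, but they are near-identical copies whose reads cannot be assigned with certainty.

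Genes known to be induced by glucocorticoids were mostly higher in the DEX libraries. Of 23 listed genes 18 were tested. Their median log2 change was 0.43 in the fit, and 0.32 in 5C, 0.46 in 8633 and 0.51 in JW14, against 0.01 over all genes in the fit. Of the 18 genes, 11 were higher in all 3 pairs, against 15.8% of all genes, and 7 of 18 had an unadjusted p under 0.05 with a higher level in DEX, against 2.08% of all genes. None passed the adjusted threshold, as for all genes (0%). The list was written with earlier results of these data known.

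*Fkbp5* (chromosome 17, 28399094 to 28517527), which encodes a chaperone that lowers the receptor's affinity for its ligand, was higher by a similar amount in each pair. It went from 12.3 to 18.5 FPKM in 5C, from 15.2 to 22.7 in 8633 and from 20.9 to 29.3 in JW14, with log2 changes of 0.59, 0.58 and 0.49. The ranges of the arms overlapped, but each DEX library was above its own VEH library. The fitted 0.55 (SE 0.14, adjusted p = 0.768 in edgeR) was below all 6 NOTCH-active pairs (0.76 to 1.59), while the difference itself, -0.58 (SE 0.17), had an adjusted p of 0.230 in edgeR. The level differed more than the change did, since the NOTCH-active VEH libraries held 60.4 to 98.2 FPKM.

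*Klf9*, a Krüppel-like transcription factor induced by the receptor in many tissues, was at 0.494 FPKM in VEH and 0.739 in DEX of 5C, at 2.95 and 5.04 in 8633, and at 2.59 and 9.22 in JW14. Its fitted log2 change was 1.11 (SE 0.29, adjusted p = 0.794 in edgeR), the largest of the list. JW14 had the largest of the 3 changes, and the NOTCH-active libraries stayed below 1 FPKM in both arms. *Ddit4*, an inhibitor of mTORC1, changed by 0.90, 0.38 and 0.95 on the log2 scale in 5C, 8633 and JW14. *Zbtb16*, a zinc finger factor, changed by 0.35 and 0.27 in 5C and 8633 and by 1.61 in JW14, and *Sgk1*, a kinase of the AGC family, by 0.36, 0.60 and 1.34.

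*Il7r*, the receptor chain for the lymphoid growth factor interleukin-7, was higher in each DEX library, but its level lay at 0.383 and 0.576 FPKM in 5C against 5.58 and 9.25 in 8633 and 12.1 and 30.0 in JW14. The phosphatase gene *Dusp1* and the antiproliferative gene *Btg1* were higher in all 3 pairs (fitted log2 0.48 and 0.44, SE 0.21 and 0.19). *Tsc22d3*, which encodes the leucine zipper protein GILZ, changed by 0.46, 0.63 and 0.20, against 0.58 to 2.17 in the NOTCH-active pairs. *Btg2* went the other way in all 3 pairs, from 12.03 to 9.17, from 27.3 to 16.4 and from 32.2 to 20.7 FPKM. The clock gene *Per1* and the metallothionein gene *Mt1* differed in sign between 5C (-0.23 and -0.88) and the pair of 8633 and JW14 (0.41 and 0.90 for *Per1*, 0.83 and 1.70 for *Mt1*).

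In 4638, which was not in this fit, *Fkbp5* changed by 1.72, *Klf9* by 2.96, *Tsc22d3* by 2.01 and *Txnip* by 1.58. Of these 4 changes, that of *Txnip* fell within the range of the 3 pairs and the other three lay above it. The median of the list in 4638 was 0.65. The libraries of 4638 held more transcripts of other marrow cells than the 6 NOTCH-silent libraries. In 4638 neutrophil markers summed to 9056 FPKM in VEH and 5619 in DEX, and erythroid markers to 395 and 786. The part of those cells in the changes of 4638 was not tested.

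**Figure D2:**
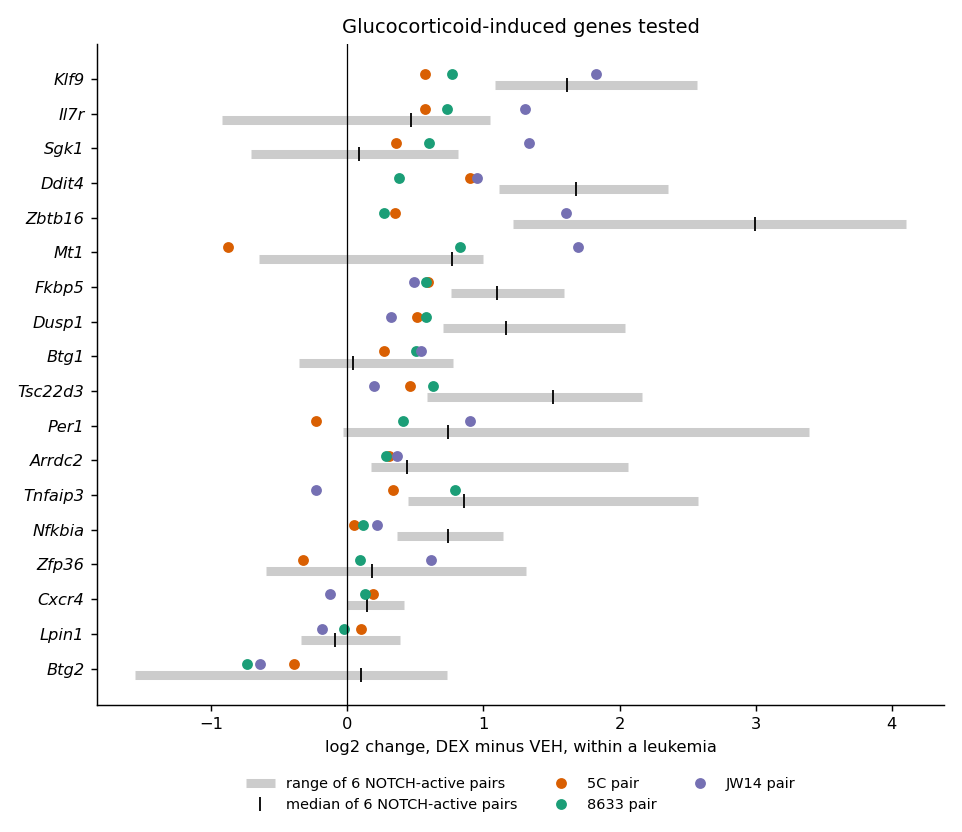
Log2 change between the DEX and VEH library for the 18 glucocorticoid-induced genes tested, ordered by the fitted NOTCH-silent change. Dots are the 5C, 8633 and JW14 pairs, and the grey bar and black tick give the range and median of the 6 NOTCH-active pairs. Most dots lie above 0, and those of *Fkbp5*, *Ddit4*, *Dusp1* and *Nfkbia* lie below the whole grey bar (over all genes 5.54% did not overlap).

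A window of *Sgk1* is shown because it was the single list member whose promoter held a full glucocorticoid response element. It is the RefSeq promoter chr10:21993640-21993939, plus strand, GRCm38.p6, 1 of 6 start site windows of this gene in the table. The capitals mark the palindrome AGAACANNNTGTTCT at position -189.
Sgk1: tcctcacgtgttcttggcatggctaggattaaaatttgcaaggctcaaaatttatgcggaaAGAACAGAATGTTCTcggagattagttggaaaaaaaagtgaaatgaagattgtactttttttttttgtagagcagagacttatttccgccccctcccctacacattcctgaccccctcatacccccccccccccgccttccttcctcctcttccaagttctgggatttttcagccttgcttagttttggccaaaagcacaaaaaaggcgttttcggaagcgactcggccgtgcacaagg
Of 32851 promoter windows 3 held this palindrome (0.00913%). The single-arm motif AGAACA, on either strand, was in 19% of all windows and in 7 of 30 windows of the 20 list genes found in the table (23.3%), those of *Cxcr4*, *Lpin1*, *Sgk1*, *Tnfaip3* and *Tsc22d3*. The E-box CACGTG was in 7.15% of all windows and in 6 of the 30. The palindrome contains AGAACA on both strands, so these counts overlap.

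Genes of the receptor and its machinery had small differences between the arms. *Nr3c1*, the glucocorticoid receptor gene, was at 36.6 FPKM in VEH and 38.0 in DEX of 5C, at 21.2 and 29.5 in 8633, and at 27.4 and 30.3 in JW14. Its fitted log2 change was 0.23 (95% interval -0.03 to 0.49), against 0.76 in the NOTCH-active leukemias (SE 0.08, adjusted p = 0.000255 in edgeR), and the difference had an adjusted p of 0.221 in edgeR. Over the 16 genes for the receptor, chaperones and coregulators the median was 0.03, and none was called in the NOTCH-silent leukemias, as for all genes (0%). *Hsp90ab1*, which encodes an HSP90 chaperone of the receptor, was the most abundant of them, at 729 to 1048 FPKM.

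Among the 9 pro-death BCL2 family genes tested, the median log2 change was 0.08, and 4 were higher and 1 lower (*Bad*) in all 3 pairs, against 15.8% and 15.3% of all genes. *Bcl2l11*, which encodes the death activator BIM, was at 7.94 FPKM in VEH and 10.4 in DEX of 5C, at 5.54 and 8.0 in 8633, and at 3.12 and 6.52 in JW14. The fitted change was 0.65 (SE 0.22, adjusted p = 0.949 in edgeR), and the NOTCH-active value was 1.23 (SE 0.16, adjusted p = 0.000577 in edgeR). *Bmf*, another BH3-only death gene, was higher by 0.45, 0.38 and 0.71 in the pairs but at 0.308 and 0.425 FPKM in 5C. *Bbc3*, which encodes PUMA, was higher by 0.85, 0.56 and 0.82, with a fitted SE of 0.43. The survival genes *Bcl2*, *Bcl2l1* and *Mcl1* had fitted changes of -0.09, -0.06 and -0.04, none of which passed the test. The remaining gene of the 4 survival genes tested had 0.38 and did not pass either.

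The 13 genes tested among FOXO targets, thioredoxin-interacting relatives and quiescence genes had a median of 0.04. Beside *Txnip* and *Cited2*, *Pik3ip1*, which encodes an inhibitor of PI3K, was higher in all 3 pairs (0.55, 0.66 and 0.28, fitted 0.50, SE 0.13). *Sesn1*, a stress-induced inhibitor of mTORC1, had -0.03, 0.04 and -0.21, below the 6 NOTCH-active pairs (0.32 to 0.73), and the difference of -0.64 (SE 0.11) had an adjusted p of 0.0584 in edgeR.

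The change between DEX and VEH differed between the NOTCH-silent and the NOTCH-active leukemias for 25 of 10682 genes (0.234%, edgeR adjusted p under 0.05), 12 with the higher change in the NOTCH-silent leukemias (0.112%) and 13 with the lower (0.122%). DESeq2 called 189 (1.77%). All 25 were also called in the NOTCH-active leukemias, 12 that fell and 13 that rose there, and none was called in the NOTCH-silent ones. The 3 and the 6 changes did not overlap for any of the 25, which restates how they were selected, and over all genes 5.54% did not overlap. The count rested on single leukemias, being 0 without 8633 and 2 without 5C, and 38 without JW14, 142 without JW81, and 10, 15, 7 and 14 without 20M, 2M, 73A and 73M.

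*Myc* (ENSMUSG00000022346, chromosome 15, 61985391 to 61990374) was slightly higher in each NOTCH-silent DEX library and fell in the NOTCH-active ones. It was at 38.8 FPKM in VEH and 46.8 in DEX of 5C, at 110 and 126 in 8633, and at 86.5 and 106 in JW14, with log2 changes of 0.27, 0.21 and 0.29. The 3 changes lay close together, although 5C had less *Myc* than the other two leukemias. The fitted NOTCH-silent change was 0.26 (SE 0.15, adjusted p = 0.958 in edgeR). In the NOTCH-active leukemias *Myc* fell by 1.29 on the log2 scale (SE 0.11, adjusted p = 3.9e-05 in edgeR), in 6 of 6 pairs, from a VEH median of 50.4 FPKM to a DEX median of 19.6. The difference was 1.54 (95% interval 1.14 to 1.95, adjusted p = 0.0129 in edgeR). In 4638 the change was 0.25. The difference of *Myc* passed in 18 of 23 other settings. It was 1.72 over leukemias without a library of short RNA counts, where 8633 was the only NOTCH-silent leukemia and the NOTCH-active ones supplied the spread, and 1.34 over those with one (adjusted p = 0.273 in edgeR).

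*Gata3*, a transcription factor needed for T lineage commitment, followed the same pattern in these pairs. Its level went from 6.71 to 7.78 FPKM in 5C, from 11.5 to 12.1 in 8633 and from 10.03 to 10.9 in JW14, and the difference to the NOTCH-active leukemias was 1.40 (SE 0.18, adjusted p = 0.0162 in edgeR). In 4638 it was -0.92, unlike the 3. *Tgif1*, a homeodomain repressor, differed by 1.49 (SE 0.21) and *Sox13*, an HMG box factor of gamma delta T cells, by 1.13 (SE 0.16). *Pprc1*, a coactivator of mitochondrial biogenesis, differed by 1.13 (SE 0.14). *Mthfd2*, a mitochondrial enzyme of folate metabolism, differed by 1.22 (SE 0.19). *Cdca7*, a known MYC target, was at 75.5 to 102 FPKM in the 6 libraries and differed by 0.72 (SE 0.10). All of these fell in the NOTCH-active leukemias, and their changes in single NOTCH-silent pairs lay between -0.35 (*Mthfd2* in 8633) and 0.50 (*Tgif1* in JW14).

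Of the 13 genes with the lower change, the largest difference was that of *Trnp1*, which encodes a nuclear DNA-associated protein. *Trnp1* (chromosome 4, 133491100 to 133498550) went from 2.26 to 2.91 FPKM in 5C, from 19.1 to 28.9 in 8633 and from 75.3 to 112 in JW14. The level differed far more between the leukemias than between the arms, and the changes were 0.36, 0.59 and 0.57. In the NOTCH-active leukemias it rose by 3.93 (SE 0.21) from VEH levels of 0.0707 to 1.21 FPKM, and the difference was -3.40 (SE 0.32, adjusted p = 0.00355 in edgeR). In 4638 it changed by 3.79. *Kcnf1*, a subunit of voltage-gated potassium channels, had log2 changes of 0.13, 0.56 and 1.25 and differed by -2.39 (SE 0.31). *Fam69b* had changes of 0.07, 0.80 and 0.95 and differed by -2.55 (SE 0.29), and *Lsr*, a lipoprotein receptor gene, differed by -2.56 (SE 0.38). *Lsr* was at 8.06 and 9.20 FPKM in 5C, 2.14 and 3.70 in 8633 and 0.668 and 2.02 in JW14, with changes of 0.19, 0.79 and 1.54. The NOTCH-active VEH libraries held 0.0728 to 0.333 FPKM of *Lsr* and 0.0156 to 0.644 of *Kcnf1*, few counts in some, so the size of the rise and of the difference is uncertain for these genes and for *Trnp1*. *AA467197* was at 1.13 FPKM in VEH and 0.957 in DEX of 5C, 0.388 and 0.864 in 8633 and 0.855 and 2.01 in JW14, and differed by -2.09 (SE 0.36, adjusted p = 0.0499 in edgeR). *Slc7a11*, the cystine transporter chain of system xc-, was at 13 and 12.6 FPKM in 5C and between 0.205 and 0.309 FPKM in 8633 and JW14, with changes of -0.05, -0.02 and -0.21. It rose in 6 of 6 NOTCH-active pairs (1.20 to 2.49), and the difference was -1.88 (SE 0.27, adjusted p = 0.0220 in edgeR). *Mlxip*, whose protein binds carbohydrate response elements, was at 5.38 and 6.58 FPKM in 5C, 5.99 and 6.41 in 8633 and 3.08 and 4.97 in JW14, and differed by -0.88 (SE 0.15, adjusted p = 0.0488 in edgeR). Its partner gene *Mlx* was lower in all 3 pairs, at -0.38, -0.40 and -0.35.

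**Figure D3:**
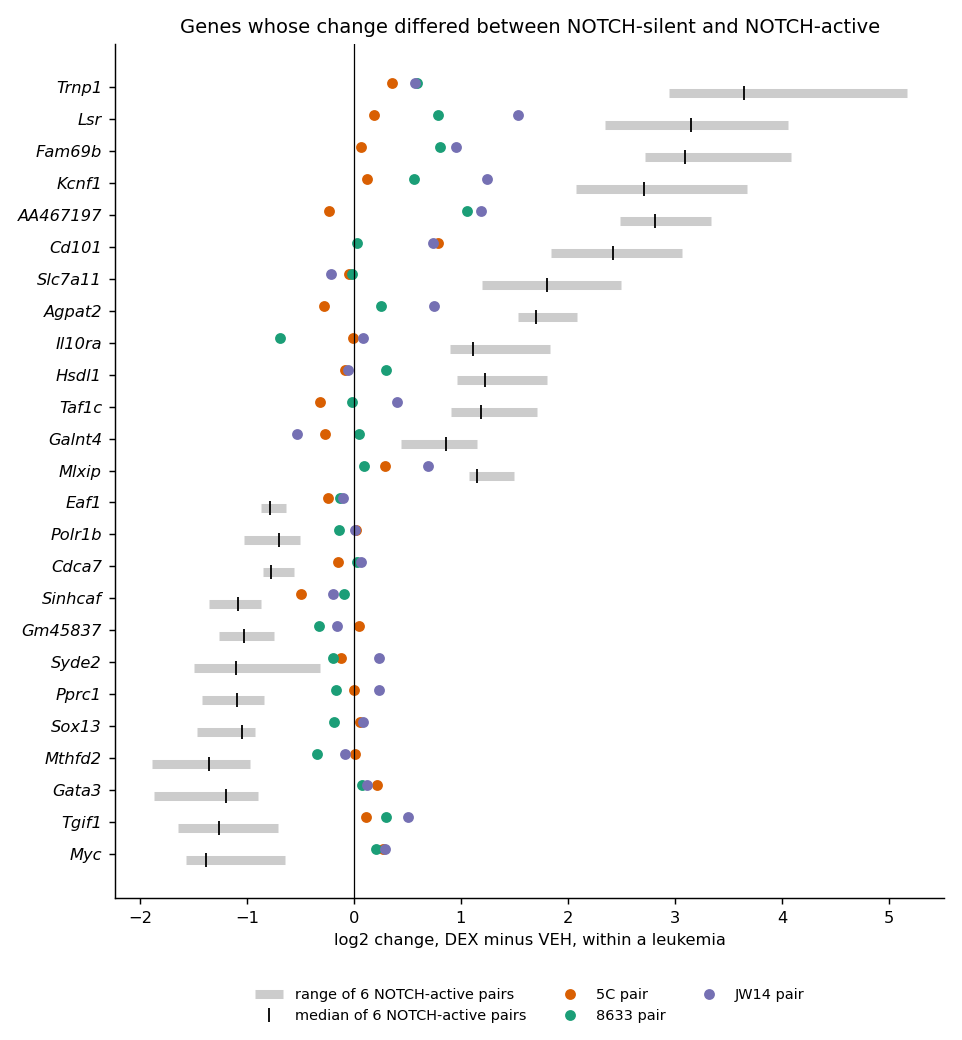
Log2 change between the DEX and VEH library for the 25 genes whose change differed between the classes, ordered by the difference. Dots are the 5C, 8633 and JW14 pairs and grey bars the range of the 6 NOTCH-active pairs, with the median as a tick. The dots stay near 0 for *Myc*, *Gata3* and most others, and for no gene do dots and bar overlap.

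The 25 ribosome biogenesis genes, among them the nucleolar genes *Ncl*, *Npm1* and *Fbl*, had a median log2 change of 0.03 (0.00 in 5C, 0.04 in 8633 and 0.04 in JW14). None was called, as for all genes (0%). In the NOTCH-active leukemias the median was -0.39, and 15 of 25 fell and none rose, against 10.2% and 8.7% of all genes. All 25 had the higher change in the NOTCH-silent leukemias, against 5226 of 10682 genes. *Polr1b*, a subunit of RNA polymerase I, passed the test of the difference (0.69, SE 0.12, adjusted p = 0.0488 in edgeR), against 0.234% of all genes. *Polr1b* was at 18.2 and 18.5 FPKM in 5C, 21.6 and 19.6 in 8633 and 24.3 and 24.4 in JW14, so the arms differed by less than the leukemias. The 18 glycolysis genes had a median of 0.15 against -0.44, and 10 were higher and 1 lower in all 3 pairs, against 15.8% and 15.3% of all genes. *Slc16a1*, a lactate transporter gene, was the lower one, at 40.4 and 30.7 FPKM in 5C, 65.7 and 64.3 in 8633 and 76.4 and 49.9 in JW14 (fitted log2 -0.35). *Ldha*, which makes lactate, went from 165 to 187 FPKM in 5C, from 290 to 348 in 8633 and from 280 to 321 in JW14. The pyruvate kinase gene *Pkm* had the lowest p of the list among the higher genes (0.31, SE 0.13, adjusted p = 0.958 in edgeR). Of the 18 glycolysis genes, 17 had the higher change in the NOTCH-silent leukemias. For 11 the edgeR test of the difference gave an unadjusted p under 0.05, against 10.8% of all genes. None of the 18 passed at the adjusted threshold, against 0.234% of all genes.

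The 26 replication genes had a median of 0.11 against -0.20 in the NOTCH-active leukemias. Of the 26, 13 were higher in all 3 pairs and none lower, against 15.8% and 15.3% of all genes. None was called, as for all genes (0%). The helicase genes *Mcm2*, *Mcm3* and *Mcm5* had changes between 0.12 and 0.20 in each pair, those of *Mcm6* were 0.17, 0.17 and 0.02, those of *Mcm4* -0.03, 0.01 and -0.06, and those of *Mcm7* -0.03, 0.25 and 0.16. The 25 mitosis genes had a median of 0.07 against 0.29, and in the NOTCH-active leukemias 10 rose, against 8.7% of all genes. *Ccnb1*, the mitotic cyclin, was at 39.6 and 41.6 FPKM in 5C, 30.0 and 39.8 in 8633 and 33.7 and 35.5 in JW14.

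**Figure D4:**
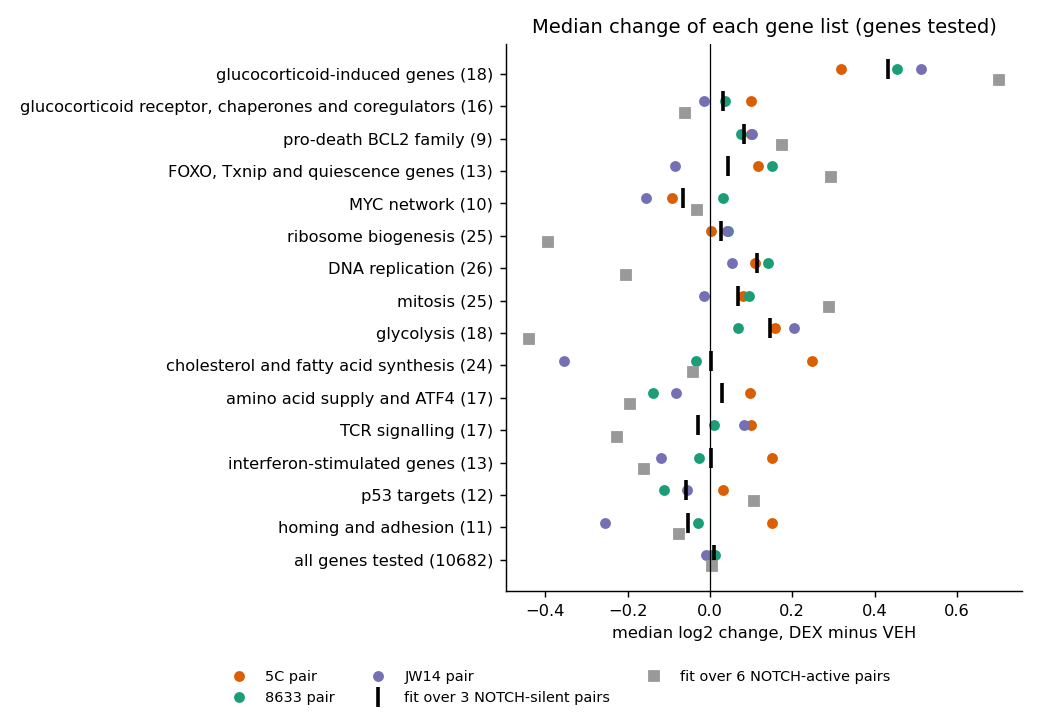
Median log2 change between DEX and VEH over each pathway list and over all genes, with the number of genes tested in parentheses. Dots are the 5C, 8633 and JW14 pairs, black ticks the fit over them and grey squares the fit over the 6 NOTCH-active pairs. Glucocorticoid-induced genes have the largest NOTCH-silent median of the lists plotted (0.43), and the squares of ribosome biogenesis (-0.39) and glycolysis (-0.44) lie well below the dots.

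Amino acid supply genes of the ATF4 response had a median of 0.03 over 17 genes tested. *Slc38a2*, a transporter of neutral amino acids, was at 21.5 FPKM in VEH and 17.1 in DEX of 5C, 32.7 and 23.6 in 8633, and 36.9 and 23.1 in JW14. It was the list's member with the lowest p (adjusted p = 0.652 in edgeR) and it fell in the NOTCH-active leukemias (-0.76, SE 0.08). *Atf4* itself had changes of 0.08, 0.14 and -0.13.

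The 24 cholesterol and fatty acid genes separated the pairs, with medians of 0.25 in 5C, -0.03 in 8633 and -0.35 in JW14. *Hmgcs1*, an early enzyme of sterol synthesis, went from 13.1 to 17.4 FPKM in 5C, from 11 to 11.3 in 8633 and from 13.8 to 9.14 in JW14. The fitted median of 0.00 thus stood over 3 pairs of different sign. In 5C and JW14 the list was lower in the library with short RNA counts, VEH of 5C and DEX of JW14. Library and leukemia cannot be told apart here.

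T lineage and T-cell receptor genes had medians of -0.02 and -0.03 in the fit. For T lineage genes the pairs went apart, with medians of 0.08 in 5C (9 of 13 higher), 0.03 in 8633 and -0.24 in JW14 (1 of 13 higher). Among early response genes of receptor signalling, in 5C *Egr1* went from 6.22 to 2.25 FPKM, *Nr4a1* from 6.42 to 1.88 and *Cd69* from 1.07 to 0.407. In 8633 and JW14 *Nr4a1* was at 6.35 and 6.97 and at 10.8 and 14.2 FPKM. *Egr2* was lower in DEX in all 3 pairs, with log2 changes of -1.49, -0.32 and -0.09, and *Egr3* was below the filter, at 0.232 and 0.0554, 0.227 and 0.113, and 0.141 and 0.110 FPKM. A difference of 5C from the other two was not tested, since each leukemia had 1 library in each arm. Interferon-stimulated genes, p53 targets and homing genes had medians of 0.00, -0.06 and -0.05, with no gene called, as for all genes (0%). Homing genes had 0.15 in 5C (8 of 11 higher), -0.03 in 8633 and -0.25 in JW14 (0 of 11 higher), and interferon-stimulated genes had 0.15 (10 of 13 higher), -0.03 and -0.12 (3 of 13 higher). T lineage, homing and interferon genes were thus lower in the library with short RNA counts, VEH of 5C and DEX of JW14. For these lists too, library and leukemia cannot be told apart.

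Between the arms of a single leukemia, 296 genes were past 2-fold in 5C (2.77%), 154 in 8633 (1.44%) and 413 in JW14 (3.87%). In 5C 80 of these were higher in DEX (0.749%) and the rest lower (2.02%), in 8633 82 were higher (0.768%) and 72 lower (0.674%), and in JW14 268 were higher (2.51%) and 145 lower (1.36%). In 4638 the count was 356 (3.33%), 177 higher (1.66%) and 179 lower (1.68%). Genes with fewer than 200 bases of exon made up 125 of the 296 in 5C, 121 of them lower in DEX, and 126 of the 413 in JW14, 123 of them higher, but 10 of the 154 in 8633. Across 10682 genes Pearson's r between the changes of 5C and JW14 was -0.58, and across the 10529 genes of at least 200 bases it was -0.01. The short genes therefore carried the opposite changes, and in both leukemias they were high in the library with ribosomal RNA counts. Between 8633 and JW14 r was 0.11 over all genes, 0.18 over genes of at least 200 bases and 0.29 over 9577 protein-coding genes. Genes are not independent replicates, and the values describe these 6 libraries.

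**Figure D5:**
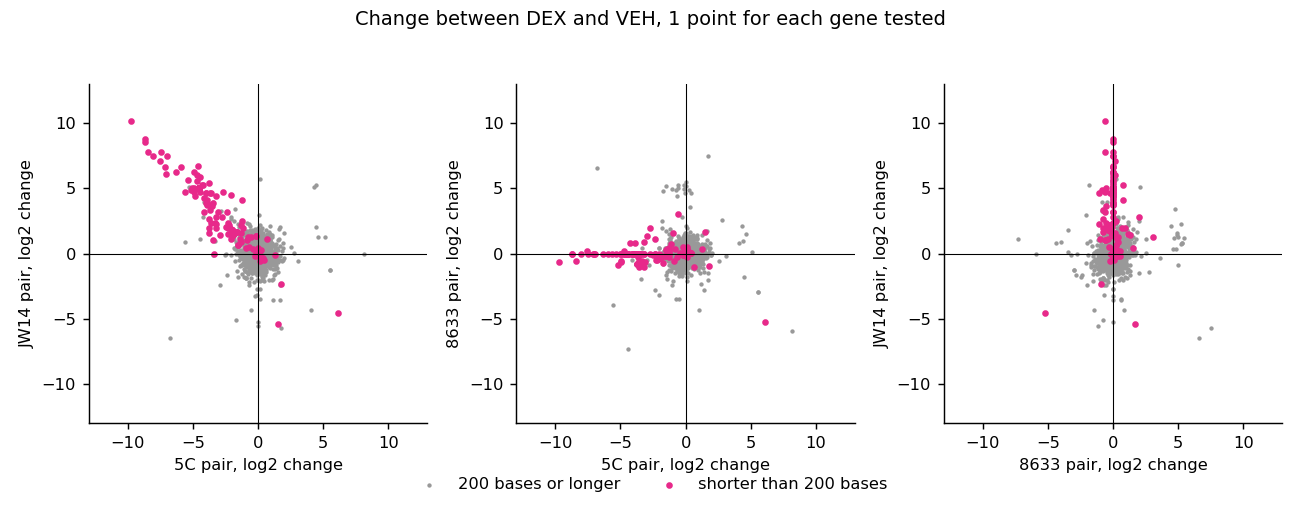
Log2 change between DEX and VEH in pairs of leukemias, with 1 point for each of 10682 genes and genes shorter than 200 bases in pink. The pink points run along a descending line for 5C against JW14 (r of -0.58 over all genes, -0.01 without them) and along one axis where 8633 is plotted.

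Leaving 5C out, 8633 and JW14 alone gave 196 called genes (1.83%, edgeR adjusted p under 0.05), 114 higher (1.07%) and 82 lower (0.768%). This fit used only 4 libraries, of 2 leukemias that were very alike (r of 0.978 in VEH), so few residual degrees of freedom were left. In addition, 1 of its DEX libraries held the short RNA counts. Among glucocorticoid-induced genes 6 of 18 were called higher and 1 lower, namely *Fkbp5*, *Klf9*, *Ddit4*, *Sgk1*, *Il7r* and *Btg1* as higher and *Btg2* as lower. *Txnip*, *Clec2d*, *Mex3a* and *Bcl2l11* passed there too (adjusted p = 0.00196, 0.000789, 0.0127 and 0.0262 in edgeR). With 5C in the 18-library fit as a term of its own the same contrast called 6 genes, *Pttg1ip*, *Emb* and *Tspan9* (log2 1.05, 1.46 and 0.95) and *Gm22422*, *Snord22* and *Gm25776* (8.39, 11.8 and 7.49). None of the genes named above for the 4-library fit was among these 6. The sign of *Gm22422* and *Gm25776* turned with the leukemia left out, being -11.3 and -7.98 without JW14 against 8.40 and 7.50 without 5C.

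Genes with the same sign in 8633 and JW14 and the other sign in 5C numbered 3116 (29.2%). The 5 largest on either side, by the smaller of the changes in 8633 and JW14, were mostly repeats, pseudogenes and short RNAs. *Gm10801* went from 400 to 138 FPKM in 5C, from 6.11 to 224.8 in 8633 and from 31.9 to 158 in JW14, and *Gm10719* and *Gm10721* behaved alike. *Rnu3b2*, a gene for U3 small nucleolar RNA with an identical copy, went from 6.88 to 325 FPKM in 5C, from 536 to 67.5 in 8633 and from 1737 to 703 in JW14. *Gpr162*, an orphan receptor gene, was at 8.71 and 9.78 FPKM in 5C and at or below 0.190 FPKM in 8633 and JW14. Values of multicopy genes are uncertain because the counting divides reads between copies.

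Macrophage and monocyte markers summed to 55.2 FPKM in VEH and 63.4 in DEX of 5C, 30.3 and 28.7 in 8633 and 23.9 and 14.5 in JW14. Erythroid markers summed to 6.94 and 13.03 FPKM in 5C, 2.37 and 4.37 in 8633 and 16.5 and 16.9 in JW14, the DEX library being higher in each pair. Of the 3 erythroid genes tested, the globin genes *Hba-a1* and *Hbb-bs* were higher in all 3 pairs (fitted log2 0.84 and 0.76, SE 0.85 and 0.90). Natural killer cell markers summed to 26.7 and 41.8 FPKM in 5C, 121 and 136 in 8633 and 135 and 80.2 in JW14. None of the marker lists had a member called in the NOTCH-silent leukemias, where no gene was called at all. In the NOTCH-active leukemias 3 of 14 neutrophil markers tested were called lower, against 10.2% of all genes. There 1 of 2 stroma and endothelium markers was called higher, against 8.7% of all genes. Of 13 T lineage markers 2 were called higher and 2 lower there. The part of other cell types in the results above was not tested.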

How the data were processed

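Per the labels and the study's methods, poly(A) RNA from recipient marrow was sequenced, reads were aligned to mm10 with Bowtie2, and RSEM made the deposited table of expected counts per gene, with 1 column for each of 20 libraries (not whole for all genes, although its name gives FPKM). Expected counts were rounded, and FPKM was calculated from the exon lengths of the reference annotation and the totals scaled by TMM (4638 by its total). Genes whose average over the 6 NOTCH-silent libraries reached 1 FPKM were tested with edgeR 4.0.16 (R 4.3.3) in a quasi-likelihood fit to 18 libraries, with the leukemia as a block and separate arm terms for each class, and adjusted by Benjamini-Hochberg at 0.05. The fit had 7 residual degrees of freedom. The block pairs the libraries because the column names give each leukemia 1 DEX and 1 VEH library. Changes within a pair are differences of log2 CPM with a prior count of 2. Leukemias are the replicates of a class, and p-values measure the spread between these leukemias, each with 1 library in each arm. DESeq2 1.42.0 and other filters, scalings and subsets were alternatives. The floor of 3 counts in a gene of 1 kb was 0.0794 to 0.365 FPKM, covering counting error only. The fits were tested on simulated data. Genes were named by a rule: list members with the lowest p, the largest differences between classes and the largest changes opposite in 5C, plus *Trac*, *Myc*, *Dtx1* and *Txnip*; others named for a low p were chosen after their values were seen. The members and lists were chosen with earlier results of these data known. Promoter sequences are from RefSeq (GRCm38.p6). The donors' genotype and 1 list gene are not reported here.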

Additional observations from a re-analysis of the deposited data

Results flagged for a closer look

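For 13 of the genes named above by rule, the change between DEX and VEH differed between the NOTCH-silent and the NOTCH-active leukemias by the test of the difference itself (edgeR, adjusted p under 0.05), and each is a log2 difference of NOTCH-silent minus NOTCH-active. The rule took the largest differences each way from genes that passed this test, so for those genes passing restates the selection. Of the 13, the genes with the higher change in the NOTCH-silent leukemias were *Myc* (1.54), *Tgif1* (1.49), *Gata3* (1.40), *Mthfd2* (1.22), *Sox13* (1.13) and *Polr1b* (0.69). *Pprc1* (1.13) and *Cdca7* (0.72), named after their values were seen, passed the same test. Those with the lower change were *Trnp1* (-3.40), *Lsr* (-2.56), *Fam69b* (-2.55), *Kcnf1* (-2.39), *AA467197* (-2.09), *Slc7a11* (-1.88) and *Mlxip* (-0.88). With 4638 added to the NOTCH-silent leukemias, the difference of *Trnp1* was -2.74 (adjusted p = 0.113 in edgeR), that of *Gata3* 1.14 (adjusted p = 0.0711), that of *AA467197* -1.18 (adjusted p = 0.201), that of *Mlxip* -0.68 (adjusted p = 0.151), that of *Mthfd2* 1.05 (adjusted p = 0.0591) and that of *Lsr* -2.24 (adjusted p = 0.0532), so these 6 no longer passed. The other 7 still passed, *Myc* among them (1.54, adjusted p = 0.00270). The libraries of 4638 held more neutrophil and erythroid transcripts than the other NOTCH-silent ones, and their part in these values was not tested. With a term for short RNA libraries, *Polr1b* (adjusted p = 0.0718), *Slc7a11* (0.0573), *Mthfd2* (0.0551), *AA467197* (0.0686) and *Mlxip* (0.0723) did not pass in edgeR. Their differences with that term were 0.69, -1.64, 1.17, -2.06 and -0.83.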

How the results depend on the processing

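Depth can limit single pairs, since the smallest library held 8226528 counts, and 1 library in each arm of a leukemia leaves no replicate of a leukemia. With thinned libraries the genes past 2-fold were 283 in 5C, 203 in 8633 and 362 in JW14, against 296, 154 and 413. The count of genes that differed between DEX and VEH in the NOTCH-silent leukemias (0) was 17 with DESeq2, 10 over leukemias without a library of short RNA counts (8633 alone on the NOTCH-silent side, 1 pair), 6 with 5C as its own term, 2 each with genes of at least 200 bases, thinned libraries, protein-coding genes or 4638 added, 1 over the 8 libraries with *Dtx1* under 1 FPKM and 196 over 8633 and JW14 alone, and it ranged from 0 to 6 when 1 leukemia was left out. The count of genes whose change differed between the classes (25) was 189 with DESeq2, 16 with a term for short RNA libraries, 16 with thinned libraries, 0 over leukemias with a library of short RNA counts and 2 with 5C as its own term, and it ranged from 0 to 142 when 1 leukemia was left out. Without the replicate block, which discards the pairing by leukemia, both counts were 0 (56 and 195 genes at an unadjusted p under 0.05 in edgeR, 506 and 1175 in DESeq2 with the block). The genes past 2-fold in 1 leukemia were 97 in 5C, 34 in 8633 and 132 in JW14 with a filter of 5 FPKM, and 171 in 5C with genes of at least 200 bases. Of 1062 alternative values for single genes in the NOTCH-silent leukemias, 52 newly passed the threshold, and of 575 for the difference 261 no longer did. Of 624 alternative list medians 33 moved by more than the spread. The cause was not tested.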
